A study of Homo sapiens with 6 samples.

Results

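A set of 10 genes of the integrated stress response were read out of 1 comparison, that of curcumol-treated with control ACHN cells, as 10 of the 58735 genes in the deposited table and 10 of the 15160 that could be tested. They were taken from the table by gene name. They encode the 4 kinases that phosphorylate the translation factor eIF2 (EIF2AK1, EIF2AK2, EIF2AK3 and EIF2AK4), the 2 subunits that direct its dephosphorylation (PPP1R15A and PPP1R15B), the transcription factors ATF4, ATF3 and DDIT3 (CHOP), and the pseudokinase TRIB3. ACHN is an established human renal carcinoma line, which the submitters label clear cell renal cell carcinoma of wild-type genotype, and curcumol is a sesquiterpenoid of Curcuma rhizome oil. Both groups held 3 libraries of poly(A)-selected RNA, described as independent biological replicates of this line. The control is labelled vehicle in one place and described as given no drug in another, so whether a vehicle was used is uncertain. Neither the dose nor the exposure time is given in the sources used here.

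In the integrated stress response, each kinase answers a different stress: EIF2AK3 (PERK) unfolded protein in the endoplasmic reticulum, EIF2AK4 (GCN2) uncharged tRNA, EIF2AK1 (HRI) heme shortage and mitochondrial or cytosolic stress, and EIF2AK2 (PKR) double-stranded RNA. Phosphorylated eIF2 alpha inhibits the exchange factor eIF2B, so that most translation slows while mRNAs with suited upstream reading frames, ATF4 among them, are translated better. ATF4 and its partners activate DDIT3, ATF3, TRIB3 and PPP1R15A, and PPP1R15A brings protein phosphatase 1 to eIF2 alpha and ends the signal. The libraries measured mRNA only; kinase activity, eIF2 phosphorylation and translation were not measured.

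The promoter stretches of 5 of these genes are shown, those in which a searched motif was found. The motifs were searched in the whole 250 bases before each RefSeq gene start (GRCh38.p14). What is printed leaves out bases of these windows that lie in annotated exons, and is written 5′ to 3′ on the gene's strand. PPP1R15A lies at chr19:48872171-48872391 on the plus strand and PPP1R15B at chr1:204411818-204412067 on the minus strand. ATF3 lies at chr1:212565157-212565333 on the plus strand and DDIT3 at chr12:57520518-57520764 on the minus strand. EIF2AK4 lies at chr15:39933865-39934114 on the plus strand. Where a gene has several windows, the one shown for it is that of its upstream start for ATF3 and 1 of 2 overlapping windows for DDIT3. Capitals mark the motif matches.

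PPP1R15A: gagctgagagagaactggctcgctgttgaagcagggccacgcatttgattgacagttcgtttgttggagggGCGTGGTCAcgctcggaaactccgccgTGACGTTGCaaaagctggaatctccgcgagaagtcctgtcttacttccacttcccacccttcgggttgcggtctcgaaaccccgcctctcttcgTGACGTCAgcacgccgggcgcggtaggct

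PPP1R15B: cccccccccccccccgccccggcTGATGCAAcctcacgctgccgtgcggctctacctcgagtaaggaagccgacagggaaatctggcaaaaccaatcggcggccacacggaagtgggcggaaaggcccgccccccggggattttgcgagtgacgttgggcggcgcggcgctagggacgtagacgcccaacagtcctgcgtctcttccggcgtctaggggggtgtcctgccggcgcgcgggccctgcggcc

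ATF3: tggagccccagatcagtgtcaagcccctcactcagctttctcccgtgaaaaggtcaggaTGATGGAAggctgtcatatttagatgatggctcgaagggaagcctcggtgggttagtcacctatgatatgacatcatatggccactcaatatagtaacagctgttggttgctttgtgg

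DDIT3: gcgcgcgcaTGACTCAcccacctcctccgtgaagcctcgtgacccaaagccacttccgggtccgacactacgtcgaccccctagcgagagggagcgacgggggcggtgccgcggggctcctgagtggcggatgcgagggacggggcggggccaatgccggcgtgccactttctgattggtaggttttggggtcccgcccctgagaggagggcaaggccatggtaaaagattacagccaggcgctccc

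EIF2AK4: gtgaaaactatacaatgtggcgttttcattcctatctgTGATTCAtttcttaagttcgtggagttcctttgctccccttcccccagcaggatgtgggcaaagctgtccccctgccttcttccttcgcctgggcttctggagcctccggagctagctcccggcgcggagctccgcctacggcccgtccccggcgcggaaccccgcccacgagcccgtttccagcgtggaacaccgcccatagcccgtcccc

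PPP1R15A held a cyclic AMP response element (CRE), TGACGTCA, at 58 to 51 bases before the start, the motif that dimers of the ATF and CREB families bind. It also held antioxidant response elements (TGACNNNGC), at 179 to 171 bases on the other strand and at 152 to 144 bases. PPP1R15B and the upstream start of ATF3 held a C/EBP-ATF composite element (TGATGNAA), the site class that ATF4 binds with C/EBP partners, at 227 to 220 and at 191 to 184 bases. DDIT3 held an AP-1 element (TGANTCA) at 241 to 235 bases, and so did EIF2AK4 at 212 to 206 bases. Both strands were searched, and among 35116 windows of 250 bases the CRE was in 1.65%, the antioxidant element in 10.91%, the composite in 3.14% and AP-1 in 6.57%. A heat shock element (GAANNTTC, in 5.78% of windows) and the endoplasmic reticulum stress element (in 0.07%) had no match in the members' windows. The table held 9 of the 10 members, all but EIF2AK1, and the whole windows of EIF2AK2, EIF2AK3, ATF4, TRIB3 and the second start of ATF3, annotated exons included, had no match to any of the motifs searched. Those of ATF4 and TRIB3 overlap annotated exons, and none of their bases are printed. These matches are letters in a window, no binding was measured, and which start was used in these cells was not measured. Only exact matches to the searched letters were counted, so the lack of a match does not show that near variants are absent. The printed DDIT3 stretch holds such a variant of the endoplasmic reticulum stress element, which differs from the searched letters only in the last letter. Near variants were not searched in the other windows.

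Of the 10 genes, 6 rose in curcumol, 3 fell and 1 did not pass the test (edgeR quasi-likelihood test, Benjamini-Hochberg adjusted p under 0.05 over all genes tested). Levels are in CPM, counts scaled by library total and TMM factor. PPP1R15A rose most, followed by ATF3, DDIT3, EIF2AK3, TRIB3 and ATF4. EIF2AK1, EIF2AK2 and EIF2AK4 fell, all by less than 2-fold. The median log2 fold change of the 10 genes was 0.77, against -0.02 over all genes tested. Change was the rule in this comparison: 79.7% of all genes tested passed, 39.4% higher and 40.3% lower, so 9 of 10 passing is near the background. Of the 10, 5 both passed and differed by 2-fold or more, all of them higher, where the background in either direction is 44.4%. Of all 15160 genes tested, 3223 were higher and 3508 lower by this measure. The smallest of the 5 rises, that of TRIB3, was below 2-fold with library totals and just below it with no filter. The 3 libraries of one group lay wholly above or below the other for all 10 genes, against a background of 81% of genes.

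**Figure D1:**
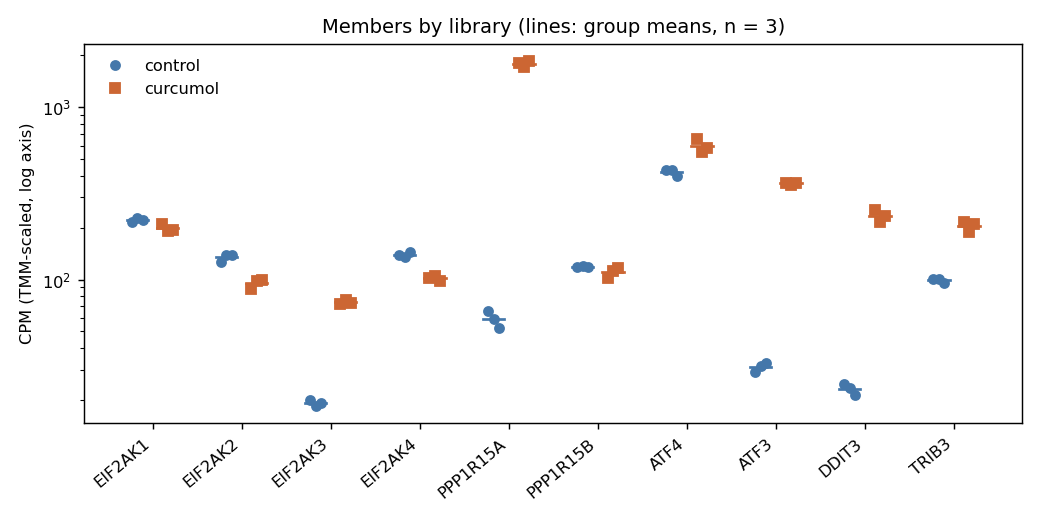
Level of each of the 10 genes in each library, in CPM scaled by TMM factors (log axis), with control as circles, curcumol as squares and group means as lines (n = 3). The 3 curcumol libraries of PPP1R15A sit at 1709 to 1851 CPM and its controls at 52.3 to 65.7 CPM, while the groups of PPP1R15B and EIF2AK1 lie close together.

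Among the kinases, EIF2AK3 alone of the 4 rose and the other 3 fell, EIF2AK1 with a call that some settings did not keep. EIF2AK3, the kinase of the endoplasmic reticulum membrane (ENSG00000172071, chromosome 2, 88556741 to 88627576, minus strand, GRCh38), had 20.1, 18.4 and 19.3 CPM in control and 72.1, 76.5 and 73.2 CPM in curcumol. Every curcumol library was thus above 3 times any control library. The mean went from 19.2 ± 0.879 to 73.9 ± 2.26 CPM (n = 3, SD), a log2 fold change of 1.94 ± 0.08 (edgeR, SE, adjusted p = 3.05e-15), and 8.19% of genes tested rose by more. Its exons share 781 bases with the antisense gene AC104134.1, which had at most 5 counts in a library.

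EIF2AK2, activated by double-stranded RNA and induced by interferon (ENSG00000055332, chromosome 2, 37099210 to 37157065, minus strand), had 126, 139.7 and 139 CPM in control and 88.4, 97.5 and 100 CPM in curcumol. The groups did not overlap, and the mean fell from 135 ± 7.91 to 95.3 ± 6.08 CPM (n = 3, SD). The log2 fold change was -0.50 ± 0.07 (edgeR, SE, adjusted p = 8.02e-07), or -1.05 with an offset for GC content and -0.77 with scaling by library totals. EIF2AK4, the sensor of uncharged tRNA (ENSG00000128829, chromosome 15, 39934146 to 40035591, plus strand), had 138, 136 and 144 CPM in control. In curcumol it had 102, 105 and 97.6 CPM, so that these groups did not overlap either. Its log2 fold change was -0.45 ± 0.06 (edgeR, SE, adjusted p = 8.33e-07), or -0.72 with library totals. Falls of this size were common, since 35.8% of genes had a lower log2 fold change than EIF2AK2 and 36.9% a lower one than EIF2AK4.

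EIF2AK1, the kinase first known from its control of globin synthesis by heme (ENSG00000086232, chromosome 7, 6022244 to 6059230, minus strand), had 216, 229 and 222 CPM in control. The curcumol libraries had 211, 191 and 193 CPM, and the highest of them was just under the lowest control. Its log2 fold change was -0.16 ± 0.06 (edgeR, SE, adjusted p = 0.0151), the smallest change among the members that passed. The call was lost with DESeq2 (-0.13, adjusted p = 0.0642), with DESeq2-type size factors in edgeR (-0.13, adjusted p = 0.0517) and in a test against a 1.2-fold change (edgeR adjusted p = 0.854). It was also lost without control replicate 2 (-0.14, edgeR adjusted p = 0.0679), without curcumol replicate 2 (-0.13, edgeR adjusted p = 0.0917) and without curcumol replicate 3 (-0.14, edgeR adjusted p = 0.0597). The value was -0.43 under library totals and -0.25 under a GC offset. EIF2AK1 shares 532 exonic bases, 9.6% of its own, with AIMP2 on the other strand, a tRNA synthetase scaffold gene whose counts went from 1004 to 1039 in control to 195 to 206 in curcumol. Whether strand was used in counting is not given, and the part of these reads in the fall of EIF2AK1 was not tested.

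To compare the kinases with each other, CPM were divided by the kilobases of joined annotated exons. On this scale the order in control was EIF2AK1 at 40 ± 1.22, EIF2AK2 at 12.5 ± 0.736, EIF2AK4 at 11.6 ± 0.352 and EIF2AK3 at 3.54 ± 0.162 CPM per kilobase (n = 3, SD). EIF2AK2, at 11.7 to 13, and EIF2AK4, at 11.4 to 12, overlapped. In curcumol EIF2AK3 stood second, at 13.6 ± 0.416, behind EIF2AK1 at 35.7 ± 1.99 CPM per kilobase, and EIF2AK2 (8.22 to 9.3) and EIF2AK4 (8.16 to 8.8) again overlapped. The share of EIF2AK3 in the summed level of the 4 kinases was 5.63%, 4.9% and 5.18% in the control libraries and 19.5%, 21.2% and 20.5% in the curcumol libraries. EIF2AK1 made up 59.1% ± 0.728 in control and 53.6% ± 2.09 in curcumol (n = 3, SD), the largest share in both. The summed level was 65.8 to 69 CPM per kilobase in control and 65.8 to 68.1 in curcumol, so these ranges overlapped.

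The order depends on the length used. With the length of a principal transcript, an alternative chosen after seeing the data, EIF2AK4 took 27.3% in control and 20.9% in curcumol and stood second in both, and EIF2AK3 went from 4.48% to 18%. The summed level was then 90.2 to 93.9 CPM per kilobase in control and 86.7 to 90.1 in curcumol. These ranges lay close together but did not overlap, unlike those by joined exons. In bulk RNA, fewer cells of a type and less RNA per cell cannot be told apart.

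**Figure D2:**
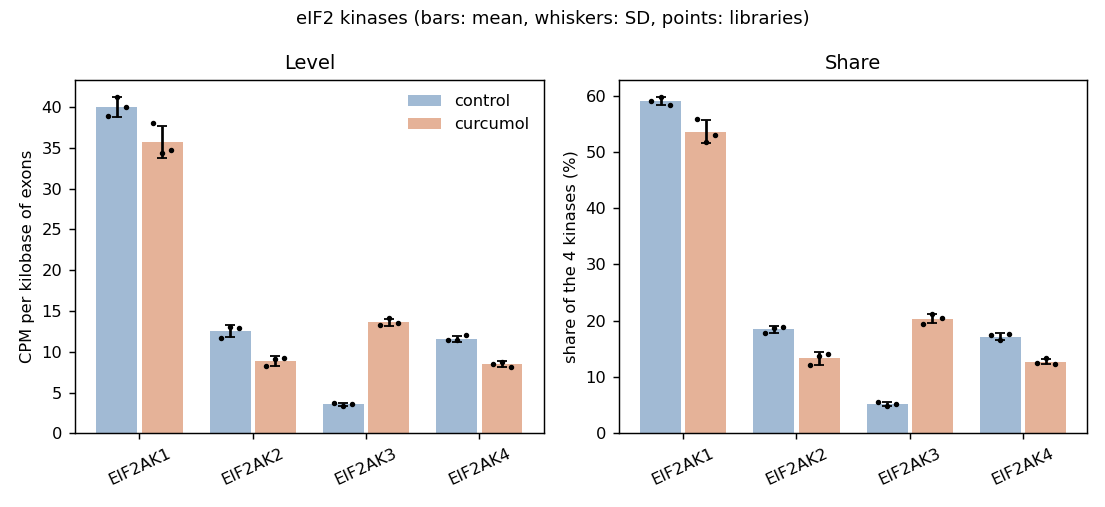
Left, level of the 4 eIF2 kinases in CPM per kilobase of joined exons; right, their shares of the summed level in percent (bars are means, whiskers SD, points the 3 libraries of each group). EIF2AK3 goes from the lowest kinase in control, at 3.54, to the second in curcumol, at 13.6 CPM per kilobase.

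The 2 phosphatase subunits parted. PPP1R15A (GADD34), the stress-induced subunit (ENSG00000087074, chromosome 19, 48872392 to 48876057, plus strand), had 1221, 1148 and 1014 counts in control and 28249, 27211 and 29314 counts in curcumol. In CPM these were 65.7, 59.2 and 52.3 against 1809, 1709 and 1851. The lowest curcumol library was far above the highest control. The mean rose from 59.1 ± 6.68 to 1789.7 ± 73.2 CPM (n = 3, SD), which is 30.3-fold, with a log2 fold change of 4.92 ± 0.08 (edgeR, SE, adjusted p = 1.53e-21). By this value it was 157th of 15160 genes, and by mean CPM it moved from rank 3603 in control to rank 41 in curcumol. Over the 16 other settings its log2 fold change ran from 4.66 to 5.47.

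PPP1R15B (CReP), the constitutive subunit (ENSG00000158615, chromosome 1, 204403387 to 204411791, minus strand), had 118, 119.5 and 118 CPM in control and 102, 112 and 117 CPM in curcumol. The highest curcumol library lay just below the controls. The log2 fold change was -0.10 ± 0.07 (edgeR, SE, adjusted p = 0.155), with a 95% interval from -0.24 to 0.03. It passed as lower under library totals (-0.37, edgeR adjusted p = 4.19e-05) and under a GC offset (-0.39, edgeR adjusted p = 3.16e-07). The upper end of the interval lies far below the rise of its paralog.

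The ratio of the paralogs within a library does not depend on the scaling between libraries. The log2 ratio of PPP1R15A to PPP1R15B counts was -0.85, -1.01 and -1.17 in control and 4.15, 3.94 and 3.98 in curcumol (0.5 added to each count). PPP1R15B thus had more counts than PPP1R15A in each control library, and PPP1R15A had more in each curcumol library. The difference of the means was 5.03 (exact permutation test, two-sided p = 0.1, the smallest that 3 against 3 libraries can give). Per kilobase of exon, PPP1R15A went from 19.1 ± 2.16 to 579 ± 23.7 CPM and PPP1R15B from 22.6 ± 0.194 to 21.1 ± 1.48 CPM (n = 3, SD).

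The transcription factor mRNAs all rose, ATF4 least. ATF4, the factor whose translation eIF2 phosphorylation favours (ENSG00000128272, chromosome 22, 39519695 to 39522685, plus strand), had 432, 432 and 401 CPM in control and 658, 548 and 580.1 CPM in curcumol. The groups did not overlap, and curcumol replicate 1 was the highest. The mean rose from 422 ± 18.1 to 596 ± 56.4 CPM (n = 3, SD), a log2 fold change of 0.50 ± 0.06 (edgeR, SE, adjusted p = 3.36e-07), and 34.2% of genes rose by more. The size depends on the scaling: it was 0.23 under library totals (edgeR adjusted p = 0.00142) and 0.93 under a GC offset (edgeR adjusted p = 2.99e-16). Its pseudogene ATF4P3 had 4 to 19 counts in a library, against 7763 to 10273 counts of ATF4.

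ATF3, a bZIP factor induced by many stresses (ENSG00000162772, chromosome 1, 212565334 to 212620777, plus strand), had 29.2, 31.6 and 32.8 CPM in control and 366, 353 and 365 CPM in curcumol. The curcumol libraries lay close together and far above the controls. The mean rose from 31.2 ± 1.87 to 362 ± 7.04 CPM (n = 3, SD), 11.6-fold, with a log2 fold change of 3.53 ± 0.07 (edgeR, SE, adjusted p = 1.68e-20). ATF3 ranked 5875th by mean CPM in control and 480th in curcumol, and 2.39% of genes rose by more.

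DDIT3 encodes CHOP, the bZIP factor linked to cell death after lasting stress (ENSG00000175197, chromosome 12, 57516588 to 57521737, minus strand). It had 459, 458 and 417 counts in control and 3954, 3451 and 3706 counts in curcumol, or 24.7, 23.6 and 21.5 against 253, 217 and 234 CPM. Again no curcumol library came near a control library. The mean rose from 23.3 ± 1.61 to 235 ± 18.3 CPM (n = 3, SD), 10.1-fold, with a log2 fold change of 3.33 ± 0.08 (edgeR, SE, adjusted p = 3.45e-19). DDIT3 shares 355 exonic bases, 27.2% of its own, with MARS on the other strand. MARS had 6711 to 6976 counts in control and 3927 to 4032 in curcumol. DDIT3 also shares 58 bases with MBD6, whose counts were lower in curcumol too. Whether strand was used in counting is not given, and the part of these reads in the counts of DDIT3 was not tested.

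TRIB3, a pseudokinase that binds AKT and ATF4 and is induced by ATF4 and CHOP (ENSG00000101255, chromosome 20, 362835 to 397559, plus strand), had 101, 100.4 and 95.6 CPM in control. In curcumol it had 217, 189 and 209 CPM, above every control. The log2 fold change was 1.05 ± 0.06 (edgeR, SE, adjusted p = 1.85e-12), and 20.3% of genes rose by more. It was 1.69 with a GC offset, 0.9988 with no filter and 0.78 with library totals. Of its paralogs TRIB1 rose from 9.26 ± 0.638 to 24.1 ± 3.08 CPM (n = 3, SD), a log2 fold change of 1.38 ± 0.12 (edgeR, SE, adjusted p = 7.4e-10). TRIB2 stood at -0.29 ± 0.19 (edgeR, SE, adjusted p = 0.158) and passed as lower with library totals (-0.56, edgeR adjusted p = 0.0106).

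**Figure D3:**
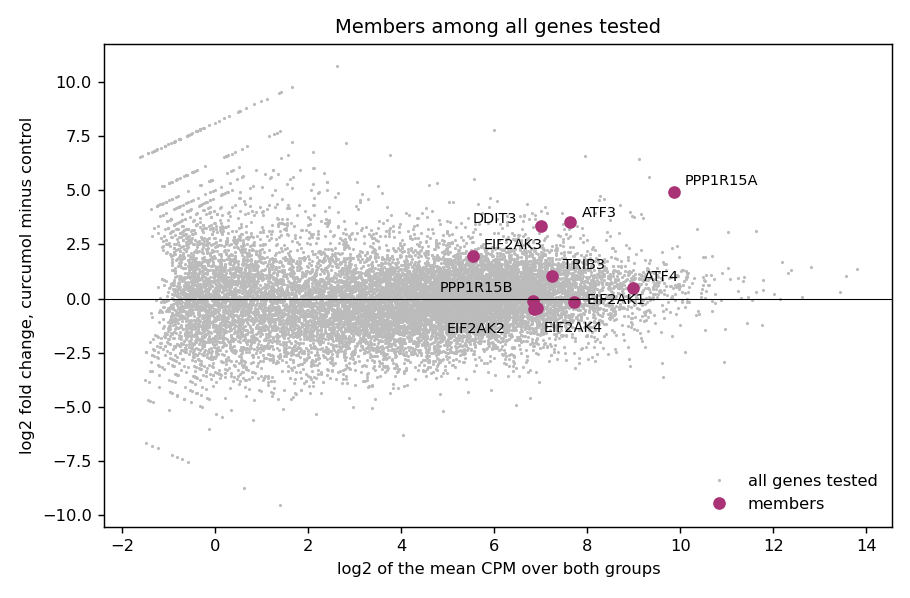
Log2 fold change (curcumol minus control) against log2 of the mean CPM over both groups for the 15160 genes tested (grey) and the 10 genes described here (large points). PPP1R15A stands at 4.92, ATF3 at 3.53 and DDIT3 at 3.33, and ATF4 at 0.50 lies within the bulk of genes of its level.

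Per kilobase of exon, ATF4 was the most abundant of the 10 mRNAs in control, at 168 ± 7.2 CPM (n = 3, SD). EIF2AK1 followed at 40, TRIB3 at 28.8, PPP1R15B at 22.6, PPP1R15A at 19.1, DDIT3 at 17.8, EIF2AK2 at 12.5, EIF2AK4 at 11.6, ATF3 at 7.72 and EIF2AK3 at 3.54 CPM per kilobase. The neighbours PPP1R15A and DDIT3 (16.9 to 21.2 and 16.5 to 18.9), like EIF2AK2 and EIF2AK4, were not separated. In curcumol the order began with PPP1R15A at 579, ATF4 at 237, DDIT3 at 179.5, ATF3 at 89.5 and TRIB3 at 59.6 CPM per kilobase. EIF2AK1 at 35.7, PPP1R15B at 21.1, EIF2AK3 at 13.6, EIF2AK2 at 8.86 and EIF2AK4 at 8.5 followed. The mRNA of PPP1R15A thus stood above that of ATF4 in every curcumol library, at 552 to 598 against 218 to 262 CPM per kilobase. With principal transcript lengths the same 7 genes led the curcumol order, and EIF2AK4 moved to the fourth place in control.

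The rule did not use the 5′ leader, where suited upstream reading frames can let mRNAs escape the block on translation. The presence of upstream start codons alone does not show such an escape. By the GENCODE annotation the principal transcripts of ATF4 have 3 to 7 upstream AUG codons, those of ATF3 1 to 5, DDIT3 2 to 3, EIF2AK3 5, TRIB3 3, PPP1R15A 2, PPP1R15B 2 and EIF2AK2 1. EIF2AK1 and EIF2AK4 have 0. Among 18652 coding genes, with 1 principal transcript taken for each, 52% have at least 1 and 21.7% at least 3. By that same choice ATF4 has 7, ATF3 1 and DDIT3 2. Whether these codons were used was not measured.

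The rest of the pathway was read from 8 lists with 82 genes, of which 81 were tested. Of these 36 rose, 33 fell and 12 did not pass, with a median log2 fold change of 0.02, so the lists as a whole moved in both directions as all genes did. The counts of each list below stand beside 39.4% higher and 40.3% lower over all genes tested. Each list is small, and the lists were chosen with earlier results of these data known. Named below are the 3 genes of each list with the smallest p and 5 chosen by name, HSPA5, CHAC1, ASNS, CEBPB and TNFRSF10B. Further genes are said to be chosen after their values were seen.

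**Figure D4:**
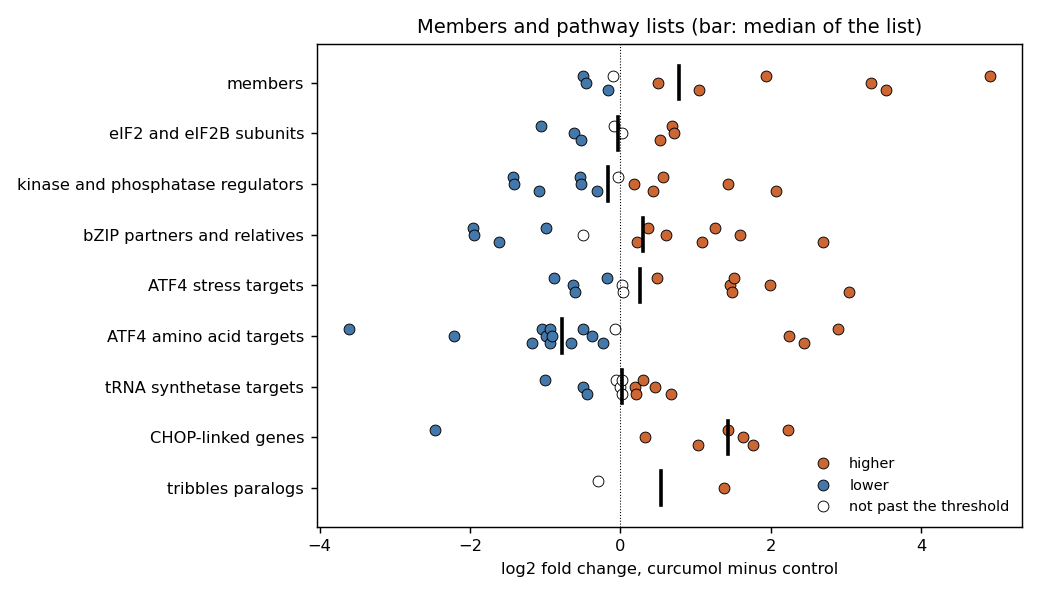
Log2 fold change (curcumol minus control) of the 10 genes described here (members) and of each gene of the 8 pathway lists, coloured by the edgeR call (adjusted p under 0.05), with a bar at each list's median. The amino acid targets of ATF4 lie mostly below 0 (median -0.78) and the CHOP-linked genes mostly above (median 1.43).

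The subunits of eIF2 and of its exchange factor eIF2B went both ways: 3 of 8 rose, 3 fell and 2 did not pass (median -0.04). EIF2S1, the alpha subunit that the kinases phosphorylate, rose from 144 ± 2.57 to 236 ± 6.58 CPM (n = 3, SD), a log2 fold change of 0.71 ± 0.06, or 0.44 under library totals and 0.18 under a GC offset (edgeR adjusted p = 0.00387). EIF2S3, the gamma subunit, fell by 0.62 ± 0.06 and by 0.95 with a GC offset. EIF2B1, the regulatory alpha subunit of eIF2B, went from 72.8 ± 3.44 to 35 ± 2.34 CPM (n = 3, SD), a log2 fold change of -1.05 ± 0.08. With library totals 5 of the 8 were lower.

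Of 12 regulators of the kinases and phosphatase, 5 rose, 6 fell and 1 did not pass (median -0.17). HSPA5, the chaperone BiP that holds EIF2AK3 inactive, rose from 1123 ± 50.8 to 3021 ± 80.4 CPM (n = 3, SD), a log2 fold change of 1.43 ± 0.06. DNAJC3 (p58IPK), an inhibitor of EIF2AK2 and EIF2AK3, rose from 47.2 ± 2.77 to 197 ± 16.3 CPM (n = 3, SD), by 2.07 ± 0.07. GCN1, which EIF2AK4 needs for its activation, fell from 435 ± 12.8 to 206 ± 4.43 CPM (n = 3, SD), with a log2 fold change of -1.08 ± 0.05, or -0.66 with a GC offset. Chosen after their values were seen, OMA1 (-1.42 ± 0.17) and DELE1 (-1.43 ± 0.11), which carry mitochondrial stress to EIF2AK1, fell as well. With library totals or a GC offset 3 members of this list were higher.

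Among 12 bZIP partners and relatives of ATF4, 7 rose, 4 fell and 1 did not pass (median 0.30). CREM, a CRE-binding factor, rose most, from 18.5 ± 0.356 to 119 ± 3.63 CPM (n = 3, SD), a log2 fold change of 2.69 ± 0.07. ATF2 rose by 1.59 ± 0.07 and CREB1 by 1.25 ± 0.07, and with a GC offset these were 0.96 and 0.59. CEBPB, a partner of ATF4 and CHOP, rose by 0.60 ± 0.09, or 0.33 under library totals and 1.41 under a GC offset. The 4 that fell were CEBPD (-1.95 ± 0.18), JDP2 (-1.95 ± 0.13), BATF3 (-1.61 ± 0.14) and ATF5 (-0.995 ± 0.1), chosen after their values were seen.

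The targets of ATF4 did not move together. Of 12 tested stress targets 6 rose, 4 fell and 2 did not pass (median 0.26). GDF15, a secreted stress cytokine, rose from 88.8 ± 3.08 to 729 ± 71.6 CPM (n = 3, SD), a log2 fold change of 3.04 ± 0.07. SESN2, a sensor of leucine and inhibitor of mTORC1, rose by 1.99 ± 0.07, and STC2, a secreted glycoprotein, by 1.45 ± 0.07. CHAC1, an enzyme that degrades glutathione, had 13.3, 10.5 and 11.3 CPM in control and 8.65, 7.85 and 6.12 CPM in curcumol. It fell by 0.63 ± 0.15 (edgeR, SE, adjusted p = 0.000629), but with a GC offset it stood at 0.06 (edgeR adjusted p = 0.679), and 2 genes of the list were then lower. INHBE had too few counts to be tested.

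Of 16 amino acid targets 3 rose, 12 fell and 1 did not pass (median -0.78). ASNS, asparagine synthetase and a standard readout of ATF4, had 3.39, 3.56 and 4.54 CPM in control and 3.46, 3.33 and 4.1 CPM in curcumol. The groups overlapped, and its log2 fold change of -0.08 ± 0.21 did not pass (edgeR, SE, adjusted p = 0.737). PYCR1, of proline synthesis, went from 97.8 ± 3.15 to 21.1 ± 2.48 CPM (n = 3, SD), a log2 fold change of -2.21 ± 0.09. The serine synthesis genes PHGDH (-1.04 ± 0.08), PSAT1 (-0.93 ± 0.06) and PSPH (-0.99 ± 0.07), chosen after their values were seen, fell as well. The 3 that rose were SLC3A2, the heavy chain of several amino acid transporters, at 2.44 ± 0.06, the neutral amino acid transporter SLC38A2 at 2.25 ± 0.07, and CTH, which makes cysteine from cystathionine. CTH stood at 2.90 ± 0.17, and CBS, the enzyme before it, at -3.61 ± 0.20. Both were chosen after their values were seen. Counts were low in control for CTH (30 to 52 in a library) and in curcumol for CBS (15 to 29 in a library). SLC7A5, 1 of the light chains that pair with SLC3A2 and also chosen after its values were seen, fell by 0.66 ± 0.06. SLC7A11, another of these light chains, from the list of stress targets and chosen in the same way, rose by 1.48 ± 0.07.

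Of 12 tRNA synthetase genes 5 rose, 3 fell and 4 did not pass (median 0.02), and this balance depends on the scaling, 2 being higher and 7 lower under library totals and 6 lower under a GC offset. GARS1 rose by 0.67 ± 0.05, or 0.40 with library totals. IARS1 went from 509 ± 16.2 to 253 ± 4.17 CPM (n = 3, SD), a log2 fold change of -1.01 ± 0.05. MARS1, listed as MARS, the gene that overlaps DDIT3, fell by 0.50 ± 0.05, or by 0.77 under library totals and 0.22 under a GC offset.

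Of 7 genes linked to CHOP 6 rose and 1 fell (median 1.43). TNFRSF10B, the death receptor DR5, rose from 252 ± 5.62 to 779 ± 7.62 CPM (n = 3, SD), a log2 fold change of 1.63 ± 0.05. Its paralog TNFRSF10A rose by 1.76 ± 0.08 and PMAIP1, the BH3 protein NOXA, from 52.8 ± 3.01 to 247 ± 15.1 CPM (n = 3, SD), by 2.22 ± 0.07. The member that fell was BCL2, a survival gene that CHOP is known to repress, from 20.7 ± 0.799 to 3.73 ± 0.902 CPM (n = 3, SD), a log2 fold change of -2.47 ± 0.15. BCL2 was chosen after its values were seen, as the 1 gene of the list that fell.

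The genes most like PPP1R15A were sought by the distance between log2 CPM values centred over the 6 libraries, among 10322 genes with a mean of at least 100 counts. They were HSPB8, a small heat shock protein (distance 0.302, log2 fold change 4.74 ± 0.07), AKR1B10, an aldo-keto reductase (0.426, 4.85 ± 0.17), and ZFAND2A, a zinc finger gene induced by arsenite and heat (0.487, 4.54 ± 0.09). Those closest to ATF4 were TCEAL1 (distance 0.0587, log2 fold change 0.52 ± 0.14), RPL8, a ribosomal protein gene (0.0619, 0.52 ± 0.07), and PXDC1 (0.0758, 0.47 ± 0.08). With 2 groups, this distance ranks genes mainly by the size of their change.

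**Figure D5:**
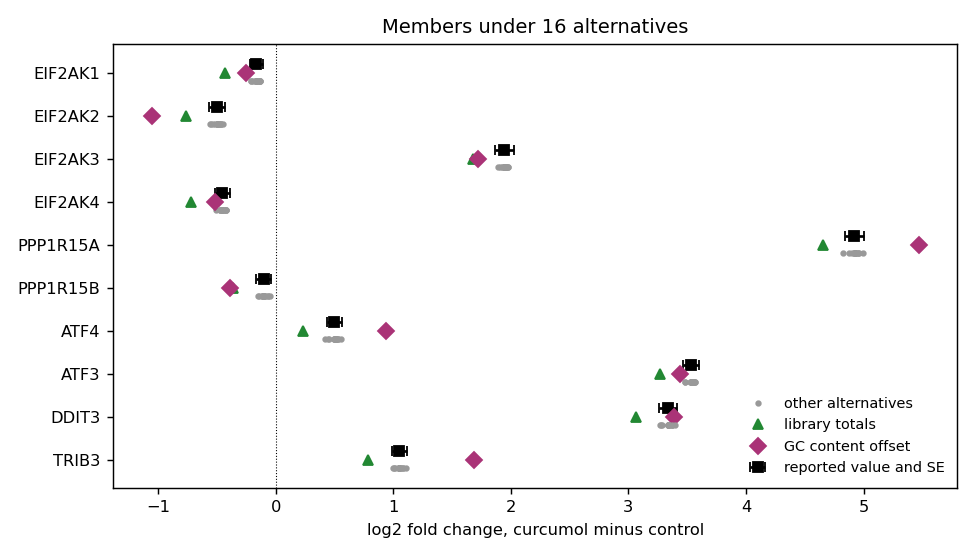
Log2 fold change (curcumol minus control) of the 10 genes as reported (squares with SE) and under 16 other settings, with library totals as triangles, a GC content offset as diamonds and the rest as small points. No gene changes sign, ATF4 runs from 0.23 to 0.93, and EIF2AK1 and PPP1R15B lie closest to 0.

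The libraries held 16962012 to 17827433 counts each. TMM factors were 1.089 to 1.103 in control and 0.9003 to 0.9195 in curcumol, so the scaling moves with the treatment; with library totals the median of all genes went from -0.02 to -0.28, 4818 genes were higher and 7372 lower, against 5967 and 6109. Of 8 renal epithelial markers 7 averaged above 1 CPM. The sum of all 8 was 2931 to 3126 CPM in control and 1917 to 2206 in curcumol. KRT8 was the largest part of it, at 1967 and 1323 CPM, KRT18 stood at 649 and 549 and PAX8 at 192 and 60 CPM. EPCAM, at 47.1 and 51.5 CPM, was alone among the 8 in having a higher mean in curcumol. The clear cell marker CA9 had 0 to 3 counts in a library and NDUFA4L2 averaged 1.79 and 1.81 CPM, while VIM was abundant. Leukocyte markers summed to 0 to 0.155 CPM in control and 4.66 to 5.33 in curcumol, nearly all of it CD14, with CD3E at 0 in every library. Endothelial markers summed to at most 0.567 CPM, fibroblast markers to 7.06 to 8.27 CPM in control and 5.88 to 16.9 in curcumol, and hepatocyte markers to at most 1.2 CPM. The highest fibroblast sum was that of curcumol replicate 2, where COL1A2 had 70 counts, against 0 or 1 in every other library. The part of these differences in the results above was not tested.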

How the data were processed

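Poly(A) RNA of 3 control and 3 curcumol libraries of ACHN cells was sequenced in pairs, per the labels' protocols. The values are raw counts per gene in 1 table, which the authors deposited without normalization. The submitters' processing notes name GRCh38 (hg38). The aligner, the counting tool, the annotation and the use of strand are not named in the sources used here, so reads in exons shared by genes on opposite strands cannot be assigned. All 58735 identifiers matched GENCODE 29 (Ensembl 94), which gave coordinates, exon lengths and overlaps.

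Of these, 15160 genes passed filterByExpr by group. Counts were scaled by TMM, and the robust, two-sided quasi-likelihood F test of edgeR 4.0.16 (R 4.3.3) was run on the whole table. P-values were adjusted by Benjamini-Hochberg over all genes tested, with a threshold of 0.05. Every adjusted p is from this test unless DESeq2 is named. The SE is the absolute log2 fold change over the square root of F. Promoters came from RefSeq (GRCh38.p14). The members, the lists and the alternatives were chosen with earlier results of these data known. Named were all members, the 3 genes of each list with the smallest p and 5 genes by name. The 3 nearest in profile to PPP1R15A and to ATF4 were named too. Of genes that overlap a member or are its pseudogenes, AC104134.1, AIMP2, MARS, MBD6 and ATF4P3 were named and the others were not. OMA1, DELE1, CEBPD, JDP2, BATF3, ATF5, PHGDH, PSAT1, PSPH, CTH, CBS, SLC7A5, SLC7A11 and BCL2 were named outside these choices, after their values were seen. The labels call the replicates independent but do not describe the cultures, and p-values measure only the spread between these samples. Replicate pairs differed by more than counting noise, with a chi-square of 3.48 to 8 per degree of freedom. The members had at least 356 counts in each library. The code was tested on simulated data.

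Alternatives were DESeq2 1.42.0, limma-voom (limma 3.58.1), DESeq2-type size factors, library totals, no filter, a filter on means (1 CPM and 50 counts), a replicate block, a test against a 1.2-fold change, an offset for GC content (per library, a spline of 5 degrees of freedom) and each library left out. Fits without the 50 most abundant genes and shares by principal transcript length were added after seeing the data. Protein sequences were not used here.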

Additional observations from a re-analysis of the deposited data

How the results depend on the processing

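The count of 6 members higher was the same under all 16 alternatives. The count of members lower, 3 as reported, was 2 with DESeq2, DESeq2-type size factors, the test against a 1.2-fold change and without control replicate 2, curcumol replicate 2 or curcumol replicate 3, where EIF2AK1 was lost. It was 4 with library totals and with the GC offset, where PPP1R15B passed. No member changed sign. The median of the members moved from 0.77 to 0.51 with library totals and to 1.31 with the GC offset. CHAC1 changed sign with the GC offset, at 0.064, and the cause was not tested. Counts that moved by over 1.5 times besides those named above were the tRNA synthetase genes higher in the 1.2-fold test (2 against 5) and the tribbles paralogs lower with library totals (1 against 0). The replicate numbers were not taken to pair the samples, because same-numbered deviations correlated at 0.02, -0.01 and 0.08 and 3 of 6 libraries correlated best with their own number. With a replicate block 6 members were higher and 3 lower, and over all genes 5955 were higher and 6131 lower. Only 3 libraries per group limit the precision of small changes such as those of EIF2AK1 and PPP1R15B.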
